A study of Mus musculus with 12 samples.

Results

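Aminoacyl-tRNA synthetases were examined as a family in 12 mRNA libraries of G1E-ER4 cells. The members were the rows of the count table whose gene symbol was a 1-letter amino acid code followed by ars, with or without a final 1 or 2, together with Farsa, Farsb, Eprs, Eprs1, Tarsl2 and Pars2. This rule used gene names alone, and it found 38 of the 17210 genes in the table. Of these, 21 encode cytosolic enzymes and 17 encode mitochondrial enzymes. The ending 2 marks the mitochondrial enzyme of an amino acid, with the exception of Tarsl2, which encodes a second cytosolic threonyl-tRNA synthetase. Gars and Kars each encode both a cytosolic and a mitochondrial form from 1 gene, and they were counted with the cytosolic enzymes.

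Aminoacyl-tRNA synthetases join each amino acid to its own tRNA with the use of ATP, and the charged tRNA then brings the amino acid to the ribosome. Mammalian cells run this reaction in the cytosol and again in the mitochondrion, where the few proteins encoded by mitochondrial DNA are made, and nearly every amino acid has a separate nuclear gene for each place. In the cytosol a set of the enzymes, namely those for arginine, aspartate, glutamine, isoleucine, leucine, lysine and methionine and the fused enzyme for glutamate and proline, is held in the multisynthetase complex by the scaffold proteins AIMP1, AIMP2 and AIMP3 (Eef1e1). Erythroid precursors make globin in large amounts, and the heme-regulated kinase HRI (Eif2ak1) slows their translation and raises the transcription factor ATF4, for which several cytosolic synthetase genes are known targets.

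G1E-ER4 is a mouse erythroid line derived from embryonic stem cells that lack GATA1. It carries a fusion of GATA1 and the estrogen receptor, and β-estradiol (EST) switches the activity of this GATA1 on, and all 4 groups share this background. The cells were transduced for 24 h with a retrovirus, either empty (Vector) or carrying the active fragment of SREBP2, the transcription factor of cholesterol synthesis. They then received vehicle (Vector and SREBP2 groups) or EST (Vector+EST and SREBP2+EST groups) for 6 h. The sources differ on the EST dose, with 500 nM in the protocol of the samples and 200 nM in the design text. The labels name the strain C57BL/6J and call the cells embryonic stem cells, and G1E-ER4 is a single cell line. Each group had 3 libraries, and nothing in the labels says that these came from separate cultures, so p-values measure only the spread between these libraries, which may be technical. The paper's figure legend gives 3 independent experiments for its data in general, and does not say how these libraries were made.

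Library totals ran from 18700959 to 19152281 estimated counts. Srebf2, the mouse gene of SREBP2, stood at 355 to 370.4 CPM (CPM scales counts to a common library size, here after TMM) in Vector and at 797 to 837 CPM in SREBP2 libraries, and it was at 432 to 456 CPM in Vector+EST and 801 to 814 CPM in SREBP2+EST libraries. The paper measured human SREBP2 mRNA in its cells with SREBP2 overexpression. What part of the Srebf2 counts came from the transgene was not tested, so these levels do not measure the overexpression. All 10 erythroid markers examined were present, with summed levels of 9879 to 10303 CPM in Vector and 6829.7 to 8132 CPM in the other groups. Among them Gata1 (1769 CPM in Vector), Tal1 (479) and Hba-a1 (3091) averaged lower in each other group, at most 557, 103 and 1737 CPM, and Gfi1b (292), Tfrc (527) and Klf1 (267) averaged higher, at least 742, 807 and 330.1 CPM. Of 10 embryonic stem cell markers, Pou5f1, Zfp42, Tdgf1 and Lin28a have no row in the table, Sox2, Nanog, Esrrb, Klf4 and Dppa5a averaged at most 0.392 CPM, and Dppa4 averaged 93.8 to 97.5 CPM. The 6 fibroblast markers summed to 19.2 to 19.9 CPM in Vector, 4.03 to 5.42 in SREBP2, 4.71 to 36.3 in Vector+EST and 18.6 to 35.1 in SREBP2+EST libraries, where Col1a2 alone made up nearly all of the Vector and SREBP2 sums (19.4 and 4.56 CPM on average) and Col1a1, Fn1, Igfbp7 and Mmp2 averaged 9.04, 3.18, 3.31 and 1.76 CPM in SREBP2+EST. The 6 neural markers summed to 9.73 to 11.5 CPM in Vector and 2.02 to 4.55 CPM in the others. The part of these cell types in the results was not tested. On the first principal component of log2 CPM, which held 75.3% of the variance, SREBP2 library 1 (24.5) lay with SREBP2+EST libraries 2 and 5 (24.2 and 24.3), and SREBP2+EST library 1 (19.1) lay with SREBP2 libraries 3 and 5 (17.7 and 17.4). These 2 libraries go against their labels in this respect, and whether their labels were exchanged was not tested. For each comparison the counts of called members in each class are also given without them. So are called values of members that then moved by over 1.5 times. Counts for the multisynthetase complex and for members without exon overlap are given with all libraries only. Libraries carry the numbers of the count table's headers, and values by library are given in the order 1, 4, 5 for Vector, 1, 3, 5 for SREBP2 and Vector+EST, and 1, 2, 5 for SREBP2+EST.

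All 38 members were expressed in every library and passed the filter on low counts. To compare genes, the mean CPM of a group was divided by the length of the longest coding transcript. In Vector cells the cytosolic enzymes then ranged from 15.7 CPM per kb for Cars, the cysteine enzyme, to 180.2 CPM per kb for Kars, the lysine enzyme, with a median of 69.6. The mitochondrial enzymes ranged from 3.59 CPM per kb for Mars2, the methionine enzyme, to 40.0 CPM per kb for Rars2, the arginine enzyme, with a median of 13.8. The low place of Mars2 depends on its transcript length of 11294 bases. Before division by length Mars2 averaged 40.5 CPM, against a mitochondrial median of 36.5 CPM. Kars was followed by Gars (129 CPM per kb), Farsb (128), Vars (114) and Hars (113). Farsa and Farsb, which encode the α and β subunits of the cytosolic phenylalanine enzyme, stood at 102 and 128 CPM per kb.

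The ranges of the classes overlapped, since 6 mitochondrial enzymes had a higher level per kb than Cars in Vector cells and Rars2 also lay just above Tars. Over 17 pairs of a cytosolic and a mitochondrial enzyme for the same amino acid, with Eprs paired with both Ears2 and Pars2, the cytosolic level per kb was a median of 6.12 times the mitochondrial one in Vector cells. The ratio was highest for tryptophan, where Wars stood at 62.9 and Wars2 at 3.8 CPM per kb. Threonine had nearly level partners, with Tars at 39.4 and Tars2 at 36.9 CPM per kb. Cysteine was the only pair in which the mitochondrial enzyme was higher, with Cars2 at 19.2 and Cars at 15.7 CPM per kb. These ratios depend on the transcript length used, which may not be that of the transcript made in these cells.

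**Figure D1:**
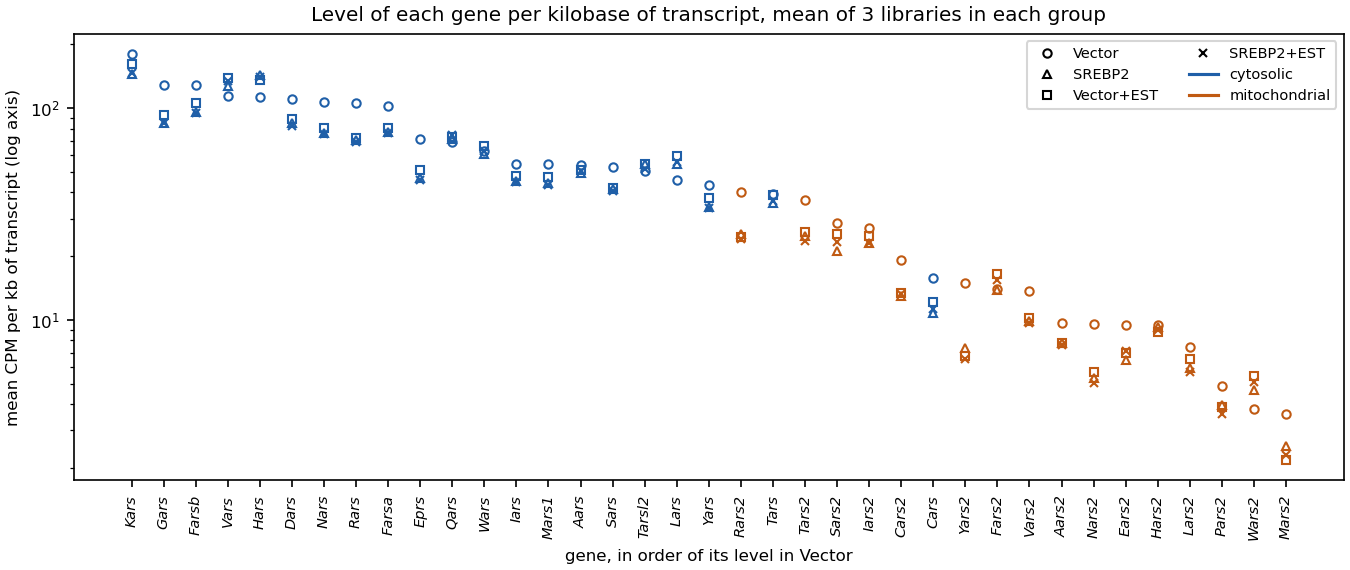
Mean CPM per kilobase of transcript (log axis) of 37 of the 38 genes in each of the 4 groups, in the order of their level in Vector, with cytosolic enzymes in blue and mitochondrial enzymes in orange. Cytosolic enzymes fill the left of the plot, and Cars is the cytosolic enzyme furthest to the right, at 15.7 CPM per kb in Vector.

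The effect of GATA1 activation was read from Vector+EST against Vector libraries. Most synthetase genes were lower with EST, in both compartments. Among the cytosolic enzymes 14 of 21 fell, 3 rose and 4 did not pass the threshold (adjusted p under 0.05, edgeR's quasi-likelihood test over 11177 genes). Among the mitochondrial enzymes 14 of 17 fell, 2 rose and 1 did not pass. Over all genes tested 35.5% were lower and 35.2% were higher. The median log2 fold change was -0.21 for the cytosolic and -0.32 for the mitochondrial enzymes, against 0.01 over all genes. Without SREBP2 library 1 and SREBP2+EST library 1 in the fit, 14 cytosolic enzymes were lower and 3 higher, and 15 mitochondrial enzymes were lower and 2 higher, with 39.1% of all genes lower and 33.7% higher. In bulk RNA, fewer cells of a kind and less RNA per cell cannot be told apart.

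Yars2, which charges mitochondrial tRNA with tyrosine (chr16:16302965-16309640), had the largest change in the family. It stood at 44.6, 42.3 and 38.8 CPM in the Vector libraries and at 19.6, 17.4 and 19.6 CPM in the Vector+EST libraries, a log2 fold change of -1.15 ± 0.10 (SE, adjusted p = 1.72e-08). The groups did not overlap, and every Vector+EST library had less than any Vector library. Such a lack of overlap was common in this comparison, with 75.7% of all genes, 20 of 21 cytosolic and 17 of 17 mitochondrial enzymes. Nars2, the mitochondrial asparagine enzyme (chr7:96951505-97064758), went from 35.7, 38.5 and 34.6 CPM to 21.5, 22.0 and 20.4 CPM, a log2 fold change of -0.77 ± 0.06 (SE, adjusted p = 1.34e-08). Mars2, the mitochondrial methionine enzyme (chr1:55237177-55248470), went from 41.0, 40.1 and 40.4 CPM to 26.0, 23.1 and 24.6 CPM (-0.72 ± 0.10, adjusted p = 7.87e-06 on the log2 scale). For both genes the 3 Vector libraries lay above the 3 Vector+EST libraries with a wide gap. Rars2, Cars2, Tars2, Ears2 and Vars2 fell by 0.70, 0.52, 0.51, 0.44 and 0.43 on the log2 scale, and the smallest fall past the threshold among the mitochondrial enzymes was that of Iars2 (-0.13). The fall of Lars2 (-0.19) did not hold when Vector library 1 or Vector+EST library 3 or 5 was left out (adjusted p = 0.05, 0.0578 and 0.0527).

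The largest falls among the cytosolic enzymes were those of the enzymes for arginine, for glutamate and proline, and for glycine. Rars (chr11:35808381-35834506) stood at 221, 222 and 223 CPM in Vector and at 151, 153 and 153 CPM in Vector+EST libraries, a log2 fold change of -0.55 ± 0.04 (SE, adjusted p = 1.48e-08). Eprs (chr1:185363044-185428360) went from 337, 343 and 374 CPM to 254, 255 and 243 CPM, a log2 fold change of -0.49 ± 0.05 (SE, adjusted p = 1.78e-07). In Gars (chr6:55038007-55079500) the change was from 304, 309 and 309.7 CPM to 225, 219.9 and 215 CPM, or -0.48 ± 0.04 (SE, adjusted p = 6.05e-09) on the log2 scale. In each of these genes all Vector libraries were above all Vector+EST libraries. The enzyme for alanine, Aars, had the smallest fall of the 14, -0.08, and it was not past the threshold without Vector library 1 (adjusted p = 0.0829) or Vector+EST library 3 or 5 (adjusted p = 0.0767 and 0.0658). Its exons overlap those of Exosc6 on the same strand by 1326 bases, so reads of the genes may be mixed.

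A few members rose with EST. Among the cytosolic enzymes these were the enzymes for leucine, valine and histidine. Lars stood at 181, 176 and 187 CPM in Vector and at 248, 235 and 229.9 CPM in Vector+EST libraries, a log2 fold change of 0.39 ± 0.05 (SE, adjusted p = 5.84e-06). Vars (chr17:35000987-35016322) went from 477, 469.9 and 471 CPM to 573, 562 and 584 CPM (0.28 ± 0.03, adjusted p = 2.24e-06), and Hars from 220.0, 220.1 and 233 CPM to 272, 274 and 269 CPM (0.28 ± 0.04, adjusted p = 1.37e-05). All 3 genes were higher in every Vector+EST library than in any Vector library, where 75.7% of all genes did not overlap in either direction. Wars2, the mitochondrial tryptophan enzyme (chr3:99141068-99239186), rose from 15.9, 17.1 and 17.3 CPM to 24.9, 23.4 and 23.1 CPM, a log2 fold change of 0.51 ± 0.06 (SE, adjusted p = 2.8e-06), also without overlap. Fars2, the mitochondrial phenylalanine enzyme (chr13:36117412-36726280), went from 26.4, 31.2 and 31.6 CPM to 37.0, 32.4 and 35.9 CPM (0.24 ± 0.10, adjusted p = 0.0348). Its call was lost when Vector library 1, 4 or 5, Vector+EST library 1 or 5 or SREBP2+EST library 2 was left out, with adjusted p-values from 0.0617 to 0.176. The 5 members that did not pass the threshold were Tars (-0.02), Qars (0.07), Wars (0.07), Tarsl2 (0.10) and Hars2 (-0.11), of which Hars2 passed without Vector+EST library 1 (adjusted p = 0.0496) and Wars without SREBP2 library 1 (adjusted p = 0.0409).

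**Figure D2:**
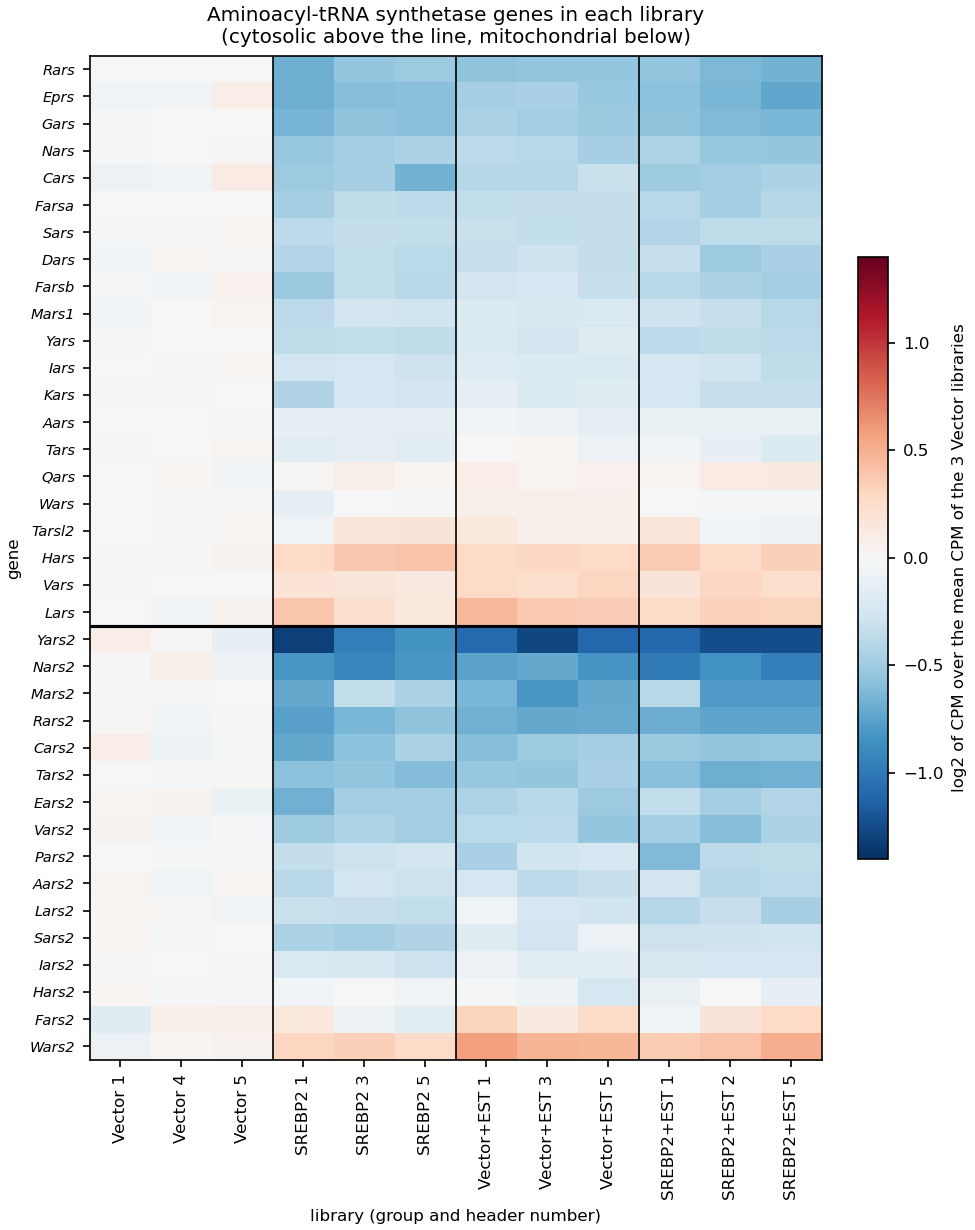
Level of 37 of the 38 genes (rows) in each of the 12 libraries (columns), as the log2 of its CPM over the mean CPM of the 3 Vector libraries, with blue for lower and red for higher values. Most rows are blue in the 9 libraries outside Vector, deepest for Yars2, and Hars, Vars, Lars and Wars2 are red there.

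The effect of active SREBP2 without EST was read from SREBP2 against the same Vector libraries. The family was lower here as well. Among the cytosolic enzymes 15 of 21 fell, 3 rose and 3 did not pass the threshold, and among the mitochondrial enzymes 14 of 17 fell, 1 rose and 2 did not pass. Over all genes 33.8% were lower and 37.7% were higher. The median log2 fold change was -0.31 for the cytosolic enzymes, -0.44 for the mitochondrial enzymes and 0.03 over all genes. Without SREBP2 library 1 and SREBP2+EST library 1 the counts were 15 lower and 4 higher for the cytosolic and 14 lower and 1 higher for the mitochondrial enzymes, with 36.4% of all genes lower and 34.3% higher. This comparison shares its Vector libraries with the EST comparison, so the values of both are set side by side only.

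Yars2 again had the largest change, with 16.95, 21.6 and 23.5 CPM in the SREBP2 libraries and a log2 fold change of -1.02 ± 0.09 (SE, adjusted p = 6.38e-08) from the Vector level. Nars2 stood at 20.6, 19.3 and 20.6 CPM in the SREBP2 libraries (-0.85 ± 0.06, adjusted p = 4.04e-09). Rars2, the mitochondrial arginine enzyme (chr4:34614957-34660167), went from 75.5, 72.8 and 75.6 CPM in Vector to 44.2, 48.1 and 50.5 CPM in SREBP2 libraries, a log2 fold change of -0.65 ± 0.05 (SE, adjusted p = 5.31e-09). None of these genes had a SREBP2 library at the level of a Vector library, and 74.8% of all genes did not overlap in this comparison. The lowest Yars2 value of the 3, like the lowest Rars2 value, was that of SREBP2 library 1. With that library and SREBP2+EST library 1 left out, the log2 fold change of Yars2 was -0.93 and that of Rars2 was -0.64.

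Among the cytosolic enzymes the falls were led by Eprs, with 218, 233 and 234 CPM in SREBP2 libraries (-0.62 ± 0.05, adjusted p = 9.14e-09 on the log2 scale). Gars stood at 196, 208 and 205 CPM (-0.60 ± 0.04, adjusted p = 4.05e-10) and Rars at 139, 152 and 157 CPM (-0.57 ± 0.04, adjusted p = 7.88e-09). Their SREBP2 values were all under the Vector values given above. The next falls were those of Cars (-0.54), Nars (-0.49), Farsb (-0.42) and Farsa (-0.39). Tars, which did not pass the threshold with EST, fell by 0.15 (adjusted p = 0.0052).

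The members that rose with SREBP2 had also risen with EST. Hars stood at 271, 292 and 295 CPM in SREBP2 libraries, a log2 fold change of 0.35 ± 0.04 (SE, adjusted p = 8.52e-07). Lars stood at 237, 212 and 201 CPM (0.26 ± 0.05, adjusted p = 0.000381) and Vars at 538, 533 and 514 CPM (0.16 ± 0.03, adjusted p = 0.000583). With SREBP2 library 1 and SREBP2+EST library 1 left out, the value of Lars was 0.15 and that of Vars was 0.11, both still past the threshold. Wars2 was the only mitochondrial enzyme that rose, with 20.7, 21.1 and 20.1 CPM and a log2 fold change of 0.30 ± 0.07 (SE, adjusted p = 0.000661). In these 4 genes every SREBP2 library was above every Vector library, against 74.8% of all genes without overlap in either direction. Qars (0.04), Wars (-0.04), Tarsl2 (0.10), Hars2 (-0.02) and Fars2 (-0.02) did not pass the threshold. Tarsl2 passed without SREBP2 library 1 (0.17, adjusted p = 0.00918) and Wars without Vector library 4 (-0.10, adjusted p = 0.0429).

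**Figure D3:**
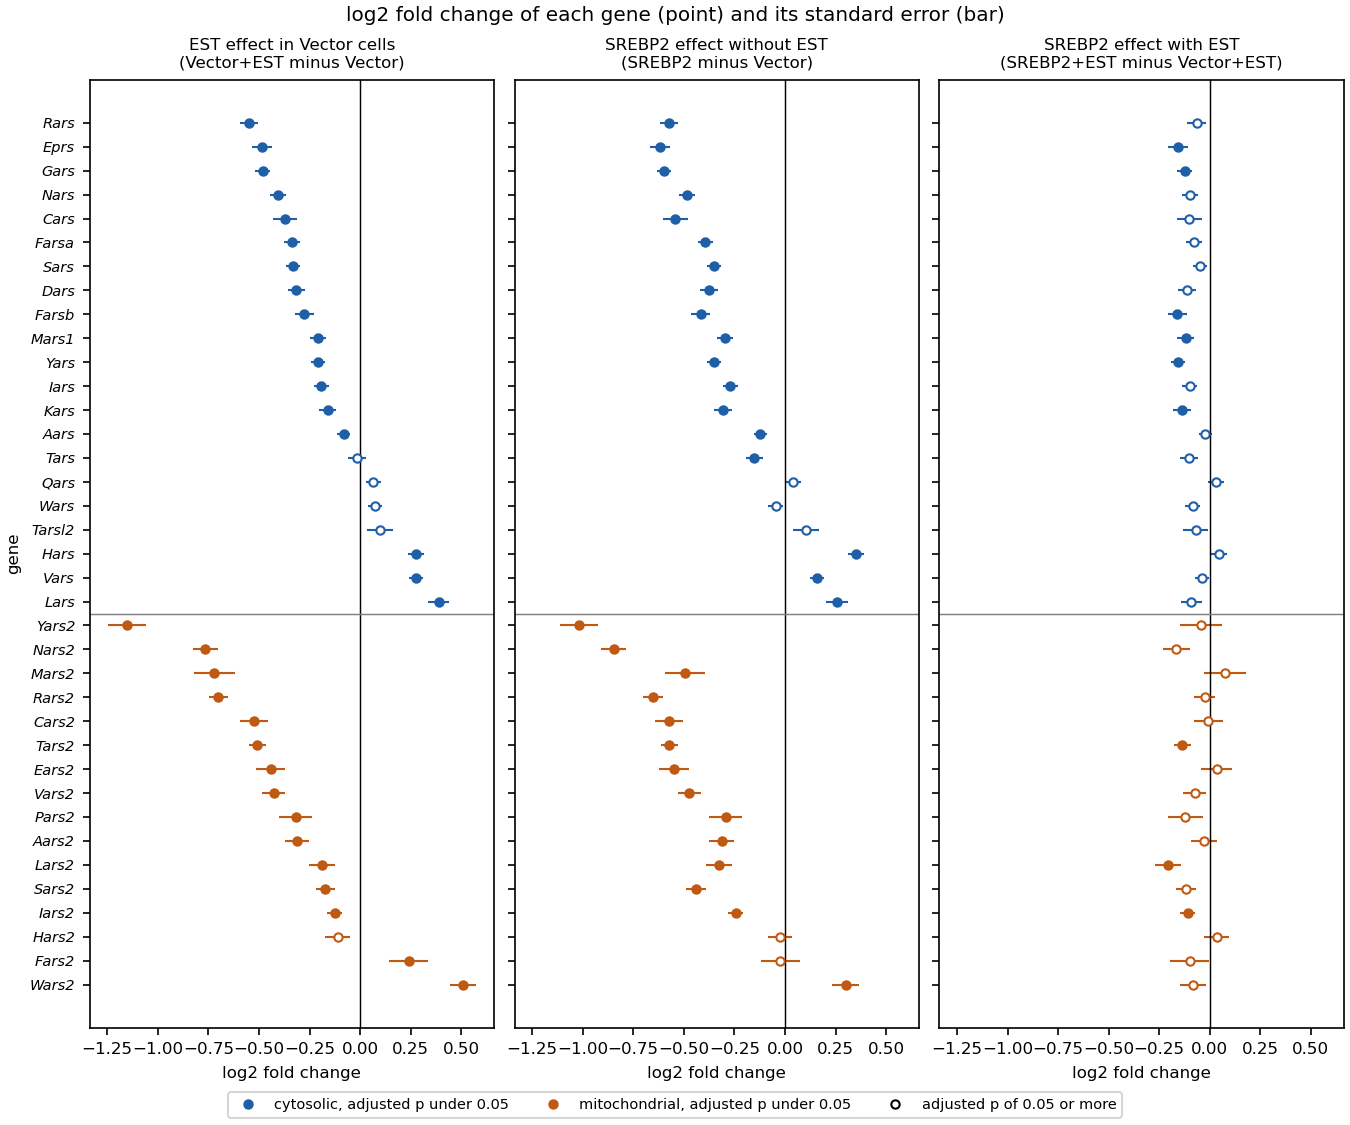
Log2 fold change (point) and standard error (bar) of 37 of the 38 genes in 3 comparisons, with cytosolic enzymes in blue above the line and mitochondrial enzymes in orange below it, and filled points for an adjusted p under 0.05. The points spread from -1.15 to 0.51 for EST in Vector cells and from -1.02 to 0.35 for SREBP2 without EST, and they lie between -0.21 and 0.08 for SREBP2 with EST.

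With EST present in both groups, the effect of SREBP2 on the family was small. In SREBP2+EST against Vector+EST libraries, 6 of 21 cytosolic and 4 of 17 mitochondrial enzymes were lower and none was higher by edgeR's quasi-likelihood test, against 7.94% lower and 14.0% higher among all genes. The medians were -0.10 for the cytosolic enzymes, -0.08 for the mitochondrial enzymes and 0.00 over all genes. Yars, the cytosolic tyrosine enzyme, stood at 109.7, 105 and 112 CPM in Vector+EST and at 97.6, 98.5 and 97.5 CPM in SREBP2+EST libraries, a log2 fold change of -0.16 ± 0.04 (SE, adjusted p = 0.00516). Farsb went from 216, 221 and 209 CPM to 199, 192 and 187 CPM (-0.16 ± 0.05, adjusted p = 0.0231) and Eprs from 254, 255 and 243 CPM to 236, 225 and 213 CPM (-0.16 ± 0.05, adjusted p = 0.0312). The groups did not overlap in these 3 genes, as in 38.1% of all genes. Lars2 went from 27.8, 24.7 and 23.9 CPM to 22.0, 23.2 and 21 CPM (-0.21 ± 0.07, adjusted p = 0.0345) and Tars2 from 82.2, 81.7 and 87.0 CPM to 79.4, 74.3 and 74.6 CPM (-0.14 ± 0.04, adjusted p = 0.0305). Other called members were Kars (-0.14), Gars (-0.12), Mars1 (-0.12) and Iars2 (-0.11).

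Yars kept its call whichever of the 12 libraries was left out, and each of the other 9 lost it without at least 1 library. The cytosolic count was 1 without Vector+EST library 1 or 3 or SREBP2+EST library 2 or 5, and it was 10 without SREBP2+EST library 1. The mitochondrial count was 1 without Vector+EST library 1 or 5 or SREBP2+EST library 2, was 2 without Vector+EST library 3 or SREBP2+EST library 1, and was 0 without SREBP2+EST library 5. Over all genes 1773 to 2440 passed in these 6 fits, against 2448 with all libraries. Without SREBP2 library 1 and SREBP2+EST library 1, 14 cytosolic and 4 mitochondrial enzymes were lower, with 14% of all genes lower and 16.8% higher. Scaling by library totals alone gave 18 members lower and none higher, and it moved the share of higher genes among all calls from 63.7% to 42.2%.

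The effect of EST in cells that already carried SREBP2 was small. In SREBP2+EST against SREBP2 libraries no member and none of the 11177 genes (0.0% higher and 0.0% lower) passed the threshold of edgeR's quasi-likelihood test, with 506 genes and 2 members (Sars2 and Vars) at an unadjusted p under 0.05 and 6 genes and no member called by DESeq2. Yars2 stood at 16.95, 21.6 and 23.5 CPM in SREBP2 and at 19.6, 17.7 and 17.7 CPM in SREBP2+EST libraries (-0.17 ± 0.10, adjusted p = 0.919). Nars2 stood at 20.6, 19.3 and 20.6 CPM and 18.3, 20.2 and 18.6 CPM (-0.08 ± 0.07, adjusted p = 0.919). Mars2 stood at 24.6, 32.0 and 29.7 CPM and 30.9, 23.4 and 23.4 CPM (-0.15 ± 0.10, adjusted p = 0.919), and its groups overlapped, with SREBP2 library 1 under and SREBP2+EST library 1 above the other libraries of their own groups. Over the 38 members the log2 fold changes ran from -0.17 to 0.16. Without these 2 libraries 4 cytosolic enzymes passed the threshold (Tarsl2 -0.22, Rars -0.12, Dars -0.12 and Vars 0.12) and 3 mitochondrial enzymes did (Mars2 -0.40, Yars2 -0.35 and Fars2 0.34), with 6.18% of all genes higher and 7.7% lower. The count of 0 in this comparison therefore depends on libraries that go against their labels, and an exchange of these labels would change what each EST effect in SREBP2 cells and each interaction value compares.

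The EST effects in SREBP2 and in Vector cells were compared by an interaction term, the log2 fold change with EST in SREBP2 cells minus that in Vector cells. It passed the threshold with a positive value for 13 cytosolic and 12 mitochondrial enzymes and with a negative value for 3 cytosolic enzymes and 1 mitochondrial enzyme. Among all genes 29.8% passed with a positive and 29.2% with a negative value. The largest differences were those of Yars2 (0.98 ± 0.14, adjusted p = 1.85e-05), Nars2 (0.68 ± 0.09, adjusted p = 8.81e-06) and Rars2 (0.63 ± 0.07, adjusted p = 1.48e-06). Those of Lars (-0.35), Hars (-0.30), Vars (-0.20) and Wars2 (-0.38) were negative. With all libraries the EST effect in SREBP2 cells was near 0 for the members, so these differences largely restate the EST effect in Vector cells with the sign turned. That holds only with SREBP2 library 1 and SREBP2+EST library 1 kept. With both left out, the EST effect in SREBP2 cells was largest for Mars2 (-0.395), Yars2 (-0.348) and Fars2 (0.345). Without SREBP2 library 1 and SREBP2+EST library 1 14 cytosolic enzymes passed with a positive and 4 with a negative value, as did 12 and 1 of the mitochondrial enzymes, against 31.3% and 25.8% of all genes. The values of Lars, Vars and Mars2 were then -0.22, -0.12 and 0.36, against -0.35, -0.20 and 0.57 with all libraries.

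The difference between the classes was followed in the sum of their levels. The 21 cytosolic enzymes summed to 4905 ± 61.9 CPM in Vector (SD, n = 3), 4498 ± 54.2 CPM in Vector+EST, 4250.2 ± 96.4 CPM in SREBP2 and 4262 ± 64.4 CPM in SREBP2+EST libraries. The 17 mitochondrial enzymes summed to 871 ± 4.62 CPM in Vector, 685 ± 11.3 CPM in Vector+EST, 649 ± 7.18 CPM in SREBP2 and 645 ± 6.22 CPM in SREBP2+EST libraries. Relative to Vector the mitochondrial sum fell by 21.36% with EST and by 25.5% with SREBP2, and the cytosolic sum fell by 8.29% and by 13.35%. The cytosolic sum was thus 5.55 to 5.73 times the mitochondrial sum in Vector libraries and 6.46 to 6.64 times in the other 9 libraries. Vars, the member with the highest CPM, rose, and without it the ratio was 5.01 to 5.19 in Vector and 5.62 to 5.82 in the other libraries. The mean ratio without SREBP2 library 1 and SREBP2+EST library 1 was 6.59 in both SREBP2 and SREBP2+EST. No test was made of these sums.

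**Figure D4:**
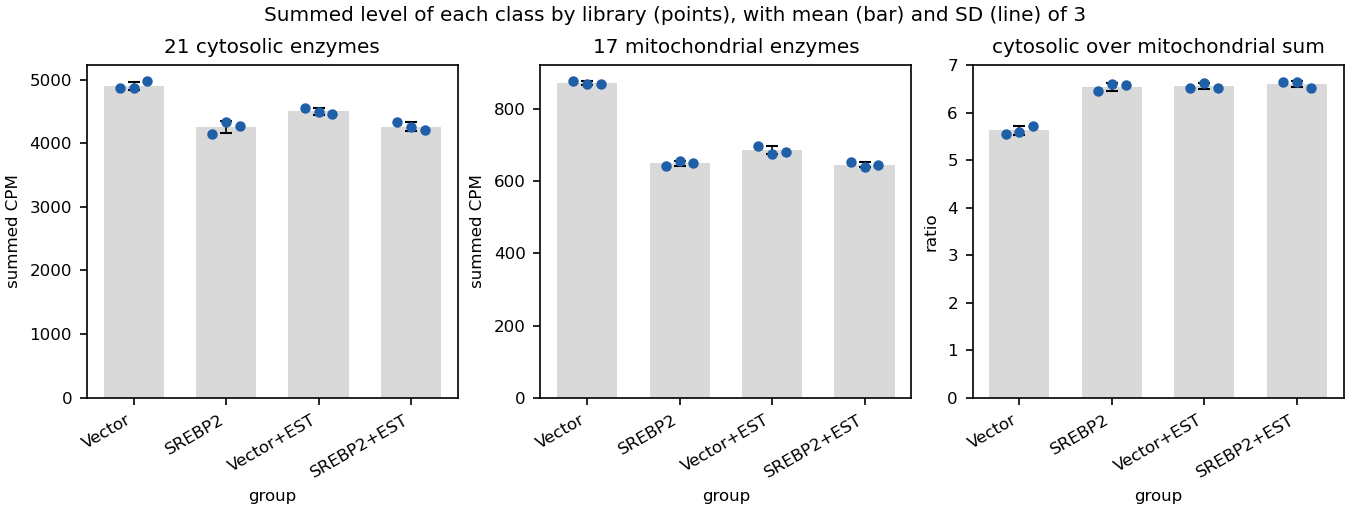
Summed CPM of the 21 cytosolic enzymes (left) and of the 17 mitochondrial enzymes (middle) and their ratio (right) in each library (points), with the mean (bar) and SD (line) of the 3 libraries of each group. The Vector libraries are highest in both sums and lowest in the ratio, at 5.55 to 5.73.

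Partners for the same amino acid were compared pair by pair. With EST in Vector cells both partners fell in 11 of 17 pairs, both rose in none, and they passed the threshold in opposite directions in 3 pairs, where 35.5% of all genes fell and 35.2% rose. The mitochondrial change was the more negative in 10 pairs, with a median difference of -0.15 on the log2 scale. With SREBP2 and no EST both partners fell in 12 pairs, passed the threshold in opposite directions in 2, and the mitochondrial change was the more negative in 12, where 33.8% of all genes fell and 37.7% rose. Leaving out SREBP2 library 1 and SREBP2+EST library 1, these counts were 12, 2 and 11 with SREBP2, and with EST they were 11 pairs with both lower, 4 called in opposite directions and 10 with the mitochondrial change more negative. Arginine showed a joint fall. Rars2 stood at 46.8, 45.4 and 45.7 CPM in Vector+EST and 46.2, 44.6 and 44.6 CPM in SREBP2+EST libraries, and Rars at 152, 144 and 140.0 CPM in SREBP2+EST libraries. Rars had log2 fold changes of -0.55 with EST and -0.57 with SREBP2, and Rars2 had -0.70 and -0.65. Tyrosine showed a fall that was larger in the mitochondrial enzyme. Yars stood at 127, 126 and 125 CPM in Vector, 98.8, 99.2 and 98.7 CPM in SREBP2 and 109.7, 105 and 112 CPM in Vector+EST libraries, with log2 fold changes of -0.21 with EST and -0.35 with SREBP2, against -1.15 and -1.02 for Yars2.

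Valine and leucine had partners that moved in opposite directions in both comparisons. Lars rose as given above and stood at 216, 227 and 225 CPM in SREBP2+EST libraries. Lars2 went from 29.7, 29.5 and 28.0 CPM in Vector to 27.8, 24.7 and 23.9 CPM in Vector+EST and 23.4, 23.2 and 22.9 CPM in SREBP2 libraries (-0.19 ± 0.06 and -0.33 ± 0.06 on the log2 scale). Vars rose, and Vars2 fell by 0.43 with EST and by 0.47 with SREBP2. The third opposite pair with EST was phenylalanine, in which Farsa fell by 0.34 and Fars2 was higher by 0.24. The EST calls of Lars2 and Fars2 were lost when some single libraries were left out, as given above. The histidine partners overlap on opposite strands by 195 exonic bases. Hars rose with EST and with SREBP2, and the values of Hars2 were -0.11 and -0.02, neither past the threshold. Tryptophan was the reverse, since Wars2 rose while Wars had values of 0.07 and -0.04 that did not pass.

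**Figure D5:**
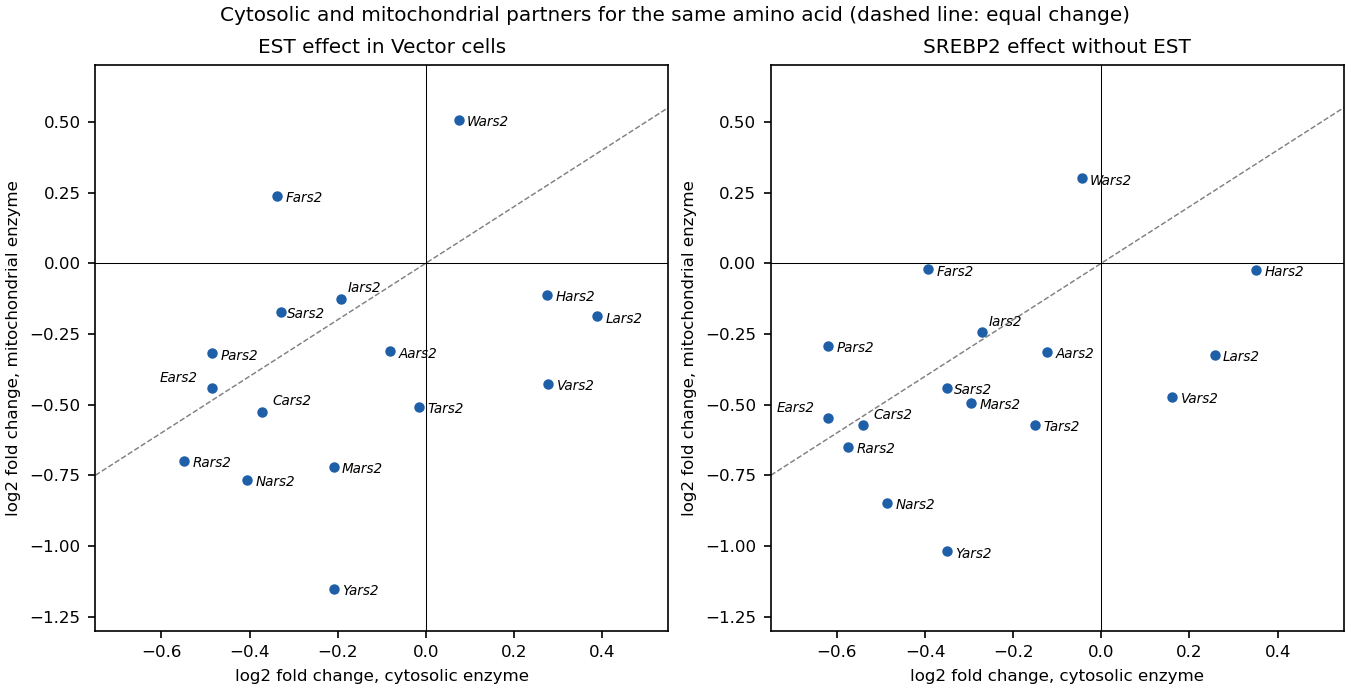
Log2 fold change of the mitochondrial enzyme against that of the cytosolic enzyme for the same amino acid in 16 of the 17 pairs, for EST in Vector cells (left) and SREBP2 without EST (right), each point named by its mitochondrial gene and the dashed line marking equal change. Points under the line, 10 of 16 on the left and 11 of 16 on the right, are pairs in which the mitochondrial enzyme had the more negative value.

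The 8 enzymes of the multisynthetase complex were counted apart from the other cytosolic enzymes. With EST in Vector cells 6 fell and 1 rose, with a median of -0.20, and of the other 13 cytosolic enzymes 8 fell and 2 rose, with a median of -0.21, against 35.5% lower and 35.2% higher among all genes. Within the complex the log2 fold changes ran from -0.55 for Rars to 0.39 for Lars. The scaffold genes differed from each other. Aimp1 stood at 110.0 ± 1.68 CPM in Vector and 114 ± 2.68 CPM in Vector+EST libraries (SD, n = 3) and did not pass the threshold in any comparison. Aimp2 rose from 97.3 ± 2.85 CPM to 148 ± 1.99 CPM with EST (0.61 ± 0.07, adjusted p = 5.99e-07) and was at 135 ± 15.05 CPM in SREBP2 libraries (0.47 ± 0.07, adjusted p = 1.17e-05). Eef1e1 fell from 66.1 ± 1.62 CPM to 45.2 ± 1.34 CPM with EST (-0.55 ± 0.07, adjusted p = 2.33e-06) and was at 41.8 ± 3.51 CPM in SREBP2 libraries (-0.66 ± 0.07, adjusted p = 2.76e-07).

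Other genes of tRNA supply and of translation were counted from lists, and each count stands against 35.5% of all genes lower and 35.2% higher with EST in Vector cells, and 33.8% lower and 37.7% higher with SREBP2 without EST. Mitochondria make glutaminyl-tRNA by charging it with glutamate and amidating it, and all 3 genes of the amidotransferase (Qrsl1, Gatb and Gatc) fell with EST in Vector cells and with SREBP2 without EST. Qrsl1 had log2 fold changes of -1.05 and -0.96, and Ears2, which charges that tRNA, had -0.44 and -0.55. Of 10 translation factors of the mitochondrial ribosome 9 fell in each of these comparisons, with medians of -0.27 and -0.37. Of 9 tested genes of mitochondrial tRNA processing and modification 5 fell with EST, and 6 fell and 1 rose with SREBP2. Of 26 genes that process, modify or export cytosolic tRNA, some of which (such as Trnt1, Elac2, Pus1 and Trmt5) also act on mitochondrial tRNA, 22 fell and 1 rose with EST and 24 fell and 1 rose with SREBP2, with medians of -0.71 and -0.74. The largest of these falls was that of Trmt61a, a subunit of the tRNA m1A methyltransferase (-1.86 with EST), and the gene that rose was Pop4, a subunit of RNase P (0.90). Of 4 genes that clear wrongly charged tRNA, Aarsd1 and Prorsd1 fell and Dtd2 rose in both comparisons, and Dtd1 did not pass. Among 5 cytosolic elongation factor genes Eef2 (0.26 with EST) and Eef1a1 (0.11) rose and Eef1d (-0.21) fell. The counts of these lists were the same for both comparisons without SREBP2 library 1 and SREBP2+EST library 1, except that with SREBP2 Dtd1 also fell, 1 further elongation factor gene fell and no gene of mitochondrial tRNA processing rose.

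Genes of the amino acid response moved in both directions. Atf4 stood at 92.5, 89.0 and 87.0 CPM in Vector, 72.6, 82.6 and 79.1 CPM in SREBP2, 66.7, 68.6 and 66.9 CPM in Vector+EST and 76.5, 75.5 and 74.2 CPM in SREBP2+EST libraries. It fell with EST in Vector cells (-0.41 ± 0.05, adjusted p = 9.95e-07) and with SREBP2 without EST (-0.20 ± 0.05, adjusted p = 0.00139), and among EST-treated cells it was higher with SREBP2 (0.16 ± 0.05, adjusted p = 0.0234). Eif2ak1 rose with EST (0.99) and with SREBP2 (0.96). Of 18 tested ATF4 targets outside the family 10 fell and 5 rose with EST, and 9 fell and 6 rose with SREBP2. Among all genes 35.5% fell and 35.2% rose with EST, and 33.8% fell and 37.7% rose with SREBP2. Trib3, a pseudokinase, had the largest fall (-3.34 with EST), and Slc7a5, which imports leucine and other large neutral amino acids, had the largest rise (1.28). Without SREBP2 library 1 and SREBP2+EST library 1, 12 of the targets fell and 5 rose with EST and 9 fell and 6 rose with SREBP2, and Atf4 was still higher with SREBP2 among EST-treated cells (0.15, adjusted p = 0.0105).

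Promoters were searched for short motifs because several cytosolic synthetase genes are known ATF4 targets. Promoter sequences from RefSeq (GRCm38.p6), running from 250 bases before to 50 bases after the annotated start, matched 28 of the 38 members, 14 in each class. Both strands were searched, and matches to different motifs did not overlap in these genes. The ATF4 element, searched as TGATGNAA, was found in 5 of 14 cytosolic and 0 of 14 mitochondrial promoters, and 4.0% of the 32851 promoters in the set hold it. The first match in each gene is shown with its surroundings, 5′ to 3′ on the strand of the gene, with the match in capitals.
Aars, chr8:111033700-111033767, + strand: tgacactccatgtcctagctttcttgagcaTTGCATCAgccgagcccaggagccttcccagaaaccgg
Gars, chr6:55037941-55038008, + strand: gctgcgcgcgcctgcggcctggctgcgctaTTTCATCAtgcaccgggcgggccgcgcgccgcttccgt
Iars, chr13:49682107-49682154, + strand: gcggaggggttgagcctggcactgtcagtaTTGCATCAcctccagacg
Tars, chr15:11399636-11399703, - strand: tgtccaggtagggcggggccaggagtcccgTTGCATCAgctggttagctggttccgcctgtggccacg
Yars, chr4:129189876-129189927, + strand: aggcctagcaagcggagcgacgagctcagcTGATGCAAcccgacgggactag
The first base of the match lay at -112 in Aars, -30 in Gars, 7 in Iars, -15 in Tars and 3 in Yars, counted from the annotated start as 0, and Aars holds another match at 9. On the strand of the gene Aars, Iars and Tars read TTGCATCA and Gars TTTCATCA, while Yars holds the element in the other orientation as TGATGCAA. Their log2 fold changes with EST in Vector cells were -0.08 for Aars, -0.48 for Gars, -0.19 for Iars, -0.02 for Tars (not past the threshold) and -0.21 for Yars.

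The other motifs were found in fewer members or in both classes. The E-box CACGTG was found in 4 cytosolic promoters (Aars, Farsb, Iars and Tars) and in 1 mitochondrial promoter (Ears2), and 7.2% of all promoters hold it. The ETS site CCGGAAG was found in 5 cytosolic (Farsa, Gars, Kars, Mars1 and Sars) and 4 mitochondrial promoters (Cars2, Mars2, Rars2 and Sars2), against 8.9% of all promoters. The GATA site AGATAA was found in Farsb, Aars2 and Sars2, against 11.2% of all promoters. The sterol element TCACNCCAC was found in no member searched, against 1.2% of all promoters. A match describes these letters in these windows and shows no binding.

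Some member counts are less certain than others. In 11 members (among them Ears2, Eprs, Fars2, Farsb, Iars, Iars2, Mars1, Tars2, Vars and Wars2) the deposited count was not a whole number in some libraries, as happens where an estimate divides reads between genes. The exons of 12 members overlap those of another gene, 5 of them by more than 200 bases. Among these are Aars with Exosc6 (1326 bases), Iars2 with Rab3gap2 (2034 bases), Vars2 with Gm20483 (296 bases) and Farsb with Sgpp2 (248 bases), and all of the 5 but Aars overlap on the opposite strand. Whether the counting used strand is not stated. Without these 5, the EST comparison in Vector cells left 15 cytosolic and 13 mitochondrial enzymes past the threshold of 19 and 14, where 35.5% of all genes were lower and 35.2% higher.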

How the data were processed

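RNA of G1E-ER4 cells was measured by mRNA sequencing (oligo(dT), single-end reads of 50 bases) in 12 libraries, 3 in each of 4 groups. The deposited table holds the authors' estimated counts per gene, not normalized, of which 66.5% were whole numbers (to within 1e-06), and they were rounded here. The submitters' processing notes name HISAT2 2.0.4, Bowtie2 2.2.5, RSEM 1.2.12, DESeq2 1.4.5 and GRCm38.p6, and which tool made the table is not stated. A second deposited file holds the authors' own comparisons of transcripts (log2 fold change, p-value and adjusted p-value for 4 pairs of groups) and was not used.

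Counts were scaled by TMM, filtered with filterByExpr (11177 genes tested, 6033 left out) and fitted with 1 mean per group over all 12 libraries by edgeR 4.0.16 (R 4.3.3). P-values of the quasi-likelihood F-tests were adjusted (Benjamini-Hochberg) across all genes tested, and the threshold was an adjusted p under 0.05. Log2 fold changes carry the standard error that the F statistic implies. DESeq2 1.42.0 was an alternative, and the steps were tested on simulated data. The simulation changed far fewer genes than were called in the comparisons with Vector, so it does not test the scaling under changes this broad. Totals were 18700959 to 19152281 counts, where 1 count is at most 0.0535 CPM, and the lowest count of any member was 178. Gene positions and transcript lengths came from GENCODE M21 (GRCm38), and promoters from RefSeq (GRCm38.p6). Values by library are given for up to 3 members with the largest called rise and fall in each class and comparison, and for partners among them. The members and gene lists were chosen with earlier results of these data known. The values of 1 member are not reported here by name, and it is counted in its class.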

Additional observations from a re-analysis of the deposited data

Results flagged for a closer look

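The effect of EST differed between SREBP2 and Vector cells, by the interaction term of edgeR's quasi-likelihood test, for 16 cytosolic and 13 mitochondrial enzymes. Among the members whose values are given by library, the EST effect in SREBP2 cells minus that in Vector cells was positive on the log2 scale for Yars2 (0.98), Nars2 (0.68), Rars2 (0.63), Mars2 (0.57), Rars (0.51), Gars (0.48), Eprs (0.46), Tars2 (0.44), Farsb (0.26) and Yars (0.19). It was negative for Wars2 (-0.38), Lars (-0.35), Hars (-0.30) and Vars (-0.20). Among all genes 29.8% had a called positive and 29.2% a called negative difference. SREBP2 library 1 and SREBP2+EST library 1, which lay with the other group on the first principal component, enter these differences, and without them 18 cytosolic and 13 mitochondrial enzymes passed the threshold, with 31.3% of all genes called positive and 25.8% called negative. The differences of Lars, Vars and Mars2 were then -0.22, -0.12 and 0.36.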

How the results depend on the processing

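No called value of the 38 members, and none of the 216 called values of the other gene lists, changed sign under the alternatives. The counts for EST in Vector cells, for SREBP2 without EST and for the interaction stayed within 1.5 times their values. For SREBP2 with EST, the count of 6 cytosolic enzymes became 12 with library totals alone, 10 with DESeq2 and 14 without SREBP2 library 1 and SREBP2+EST library 1 (3060, 2404 and 3472 of all genes, against 2448), and it ran from 1 to 10 when 1 library was left out. The count of 4 mitochondrial enzymes became 1 with no low-count filter, 1 with only the 6 libraries of the comparison (2375 and 2416 of all genes) and 2 without members that overlap another gene by over 200 bases, and it ran from 0 to 4 when 1 library was left out. For EST in SREBP2 cells, the counts of 0 became 4 cytosolic and 3 mitochondrial enzymes without SREBP2 library 1 and SREBP2+EST library 1, with 1567 of all genes. The cause of these changes was not tested. The alternatives that leave out these 2 libraries together or members that overlap another gene, and the one that counts Tarsl2 as mitochondrial, were chosen after seeing the data.

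Same-numbered libraries did not deviate together (correlations of -0.346 to 0.0829). The value of -0.346 is that of SREBP2 library 1 and SREBP2+EST library 1, which go against their labels. With few libraries per group, these correlations cannot show whether libraries were prepared in pairs. With the number as a replicate block, no cytosolic (0) and no mitochondrial enzyme (0) passed for SREBP2 with EST, where 1208 of all genes did against 2448 without the block, and for EST in Vector cells 16 cytosolic and 13 mitochondrial enzymes passed, with 7081 of all genes against 7893. Every member had at least 178 counts in each library.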
